A study of Mus musculus with 8 samples.

Results

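Besides PPAR-gamma, a small group of transcription factors sets whether a precursor becomes a fat cell. The mRNA levels of 10 of them were followed here in epididymal fat, the white adipose depot next to the testis of the mouse: Ebf1, Cebpd, Klf2, Klf4, Klf5, Klf9, Klf15, Gata2, Stat5a and Stat5b. They were chosen by name, each taken as the row of the count table with exactly that symbol, and 9 of the 10 matched, each on 1 of the table's 31854 rows. Cebpd was not analysed here. There were 4 libraries labelled S273A (replicates 2, 3, 4 and 6), from mice that carry a knock-in of alanine for serine 273 of PPAR-gamma, and 4 libraries labelled WT (replicates 1, 2, 3 and 5), from mice with the unchanged gene. All mice were on a high-fat diet. The labels do not give age, strain or zygosity, nor whether each library is a separate animal. Each p-value is therefore set against the variation from library to library, part or all of which could be technical. The titles code the S273A libraries as AA, which was not taken as a statement of zygosity. Total counts were 16161127 to 18194889 per S273A library and 14880239 to 17266209 per WT library. The alanine cannot be phosphorylated, and the comparison asked which transcripts differ when this serine cannot be modified.

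Fat cell formation is a relay of DNA-binding proteins. C/EBP-beta and C/EBP-delta come first, helped by KLF4, and with KLF5, EBF1 and STAT5 they switch on Pparg and Cebpa; KLF9 and KLF15 act later and stay on in mature fat cells. GATA2 and KLF2 hold precursors back by keeping Pparg low. Most of these proteins also work in other cells of the depot: EBF1 commits precursors to the B cell lineage, GATA2 is needed by mast cells and blood stem cells, and KLF2 and KLF4 keep endothelium quiescent. RNA was taken from whole tissue, so in these bulk libraries fewer cells of a type and less RNA per cell cannot be told apart.

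Markers were used to check that the libraries came from fat tissue, not to tell fat depots apart. All 12 adipocyte markers were detected and tested, with Adipoq, the adiponectin gene, at 704 ± 105 CPM in S273A and 683 ± 110 CPM in WT (SD, n = 4 each; CPM are counts scaled to library size by the TMM method). Of 9 markers of epididymis and testis, 6 had a row and none passed the filter on low counts.

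Promoters of 3 KLF genes are shown because Klf9 mRNA varied with Klf4 and with Klf15 mRNA, as described further on. KLF9 and KLF15 mRNAs are also known to oscillate with the circadian clock. Each window is 300 bases from RefSeq (GRCm38.p6), from 250 bases before the transcription start to 50 bases into the transcript. Capitals mark the E-box CACGTG, the palindromic element bound by CLOCK and BMAL1 and by other factors such as USF and MYC. The windows are chr6:90462326-90462625 on the plus strand for Klf15, chr4:55532426-55532725 on the minus strand for Klf4 and chr19:23140976-23141275 on the plus strand for Klf9.
Klf15: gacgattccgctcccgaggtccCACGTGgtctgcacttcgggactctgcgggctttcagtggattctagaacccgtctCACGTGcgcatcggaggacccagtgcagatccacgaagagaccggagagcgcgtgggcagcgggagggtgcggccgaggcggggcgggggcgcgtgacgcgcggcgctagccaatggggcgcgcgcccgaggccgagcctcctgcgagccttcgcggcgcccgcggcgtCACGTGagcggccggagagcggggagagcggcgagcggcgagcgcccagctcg
Klf4: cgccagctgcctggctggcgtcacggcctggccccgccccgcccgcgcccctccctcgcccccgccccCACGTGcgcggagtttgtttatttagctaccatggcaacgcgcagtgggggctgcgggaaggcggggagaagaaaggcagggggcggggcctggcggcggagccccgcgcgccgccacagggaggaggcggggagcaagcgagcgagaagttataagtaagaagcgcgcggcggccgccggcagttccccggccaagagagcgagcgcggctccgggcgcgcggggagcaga
Klf9: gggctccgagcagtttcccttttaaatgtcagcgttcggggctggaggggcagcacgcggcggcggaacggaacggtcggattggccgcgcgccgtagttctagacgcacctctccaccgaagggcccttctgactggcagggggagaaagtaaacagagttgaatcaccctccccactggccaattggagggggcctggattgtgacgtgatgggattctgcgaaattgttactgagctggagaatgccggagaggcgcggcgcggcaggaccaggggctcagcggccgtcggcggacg

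The Klf15 window held 3 copies of CACGTG, whose first bases lie 228, 172 and 3 bases before the start. The Klf4 window held 1 copy, 182 bases before the start, and the Klf9 window held none. Of 32851 RefSeq promoter windows of this length, 7.15% held at least 1 copy, 0.594% at least 2 and 0.0883% at least 3. The element reads the same on both strands, so each copy was counted once. Other motifs were searched in the same windows. The Klf9 window held 1 STAT site (TTCNNNGAA, N being any base), which 8.3% of RefSeq windows held. The Klf9 and Klf15 windows each held 1 CACCC box, which 57.5% of RefSeq windows held. The remaining motifs, among them glucocorticoid, GATA, EBF and C/EBP sites, had no match in the 3 windows. These are matches of letters and do not show that any factor binds there.

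Klf9 had the highest level of the 9 factors per length of transcript and Klf5 the lowest. Levels between genes were compared as CPM per kilobase of the deposited feature length. On that scale Klf9 was at 30.4 ± 3.35 in S273A and 29.0 ± 3.16 in WT (SD, n = 4 each), and its lowest library (25.0) lay above the highest Klf2 library (22.1). Klf2, Ebf1 and Klf4 followed with means over the 8 libraries of 20.5, 18.9 and 18.7 CPM per kilobase. Their ranges overlapped, so the order among these 3 is not resolved. Stat5b came next at 15.9 CPM per kilobase, with its whole range under that of Klf4. Klf15 (8.93) and Stat5a (8.79 CPM per kilobase) could not be ordered, Klf15 being higher in 4 of the 8 libraries. Stat5b exceeded Klf15 in 8 of 8 libraries, although the 2 ranges overlap. Gata2 lay apart at 2.86 ± 0.49 CPM per kilobase in S273A and 3.06 ± 0.33 in WT.

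**Figure D1:**
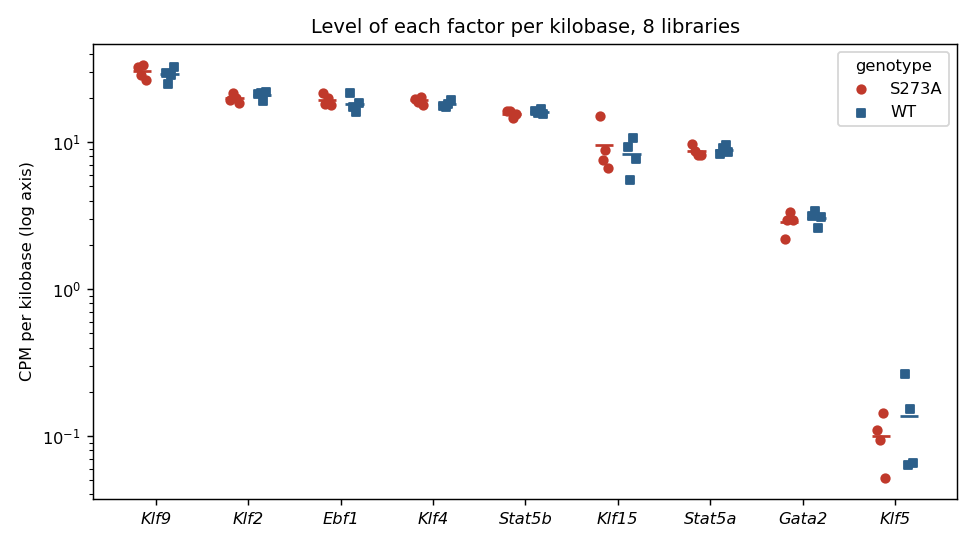
Level of each factor in CPM per kilobase (vertical log axis), 1 point per library, S273A (circles) left of WT (squares), short lines at the group means of 4 libraries. Klf9 stands above all others, Klf2, Ebf1 and Klf4 lie together near 20.5 to 18.7, and Klf5 lies far below the rest.

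Across the whole table, edgeR's quasi-likelihood test called 0 of 15667 rows at an adjusted p under 0.05, which is 0% of the rows tested, and 229 rows (1.46%) had an unadjusted p under 0.05. DESeq2 called 1 row and limma-voom 0. Of the 9 factors with a row, 8 passed the filter on low counts, and 0 of these 8 were called. The adjusted p was 1.00 for each, in edgeR's fit over all rows. Estimates were positive for 4 factors (Klf15, Klf4, Ebf1 and Klf9) and negative for 4 (Gata2, Klf2, Stat5b and Stat5a). The median estimate of the 8 was 0.021 on the log2 scale, against 0.0015 over all tested rows. The groups overlapped for all 8, while 1.19% of tested rows had no overlap (0.657% higher and 0.53% lower in S273A). Taken factor by factor, the 95% confidence intervals ran from -0.41 at the lowest to 0.82 at the highest on the log2 scale, so none of them reached a 2-fold difference in either direction.

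**Figure D2:**
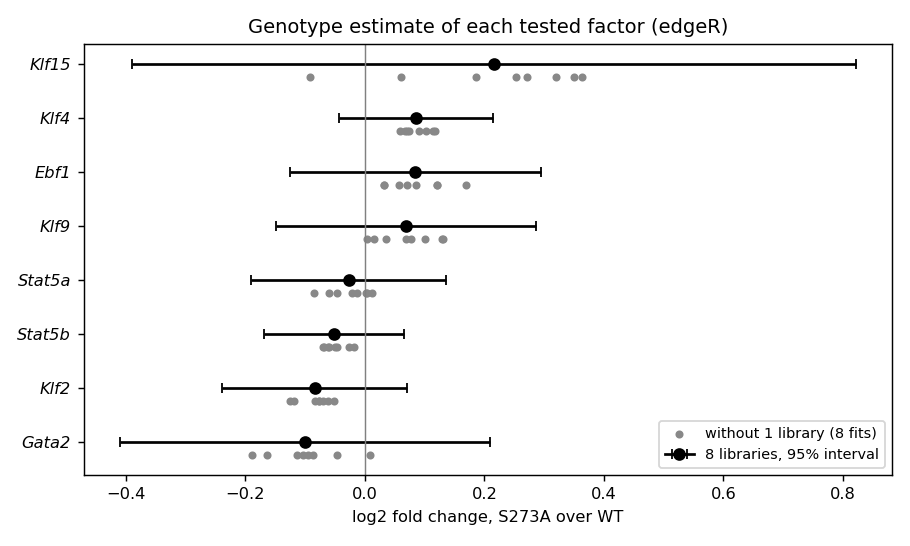
Log2 fold change of S273A over WT (horizontal axis) for the 8 tested factors, with 95% confidence intervals over 8 libraries (black) and the estimates of the 8 fits that each leave out 1 library (grey). Every interval crosses 0, and the one for Klf15 is the widest.

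Among the factors that act early, Ebf1 encodes early B cell factor 1, a helix-loop-helix protein that promotes both B cell and fat cell fates. Ebf1 mRNA was at 186, 159, 174 and 155 CPM in S273A replicates 2, 3, 4 and 6, against 187, 150.0, 139.7 and 159.7 CPM in WT replicates 1, 2, 3 and 5. The highest values came from 1 library of each genotype and the lowest from WT replicate 3. Ebf1 had a log2 fold change of 0.084 (SE 0.094, interval -0.13 to 0.29 at 95% confidence, edgeR unadjusted p 0.392). Summed B cell markers, of which 7 of 8 had a row and were tested, spanned 53.6 to 172 CPM in S273A and 65.9 to 139 CPM in WT. Across libraries Ebf1 did not follow their score (Pearson r = -0.39, n = 8).

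Klf4 encodes a zinc finger activator of Cebpb at the start of fat cell formation. It was at 60.4, 57.4, 62.0 and 54.6 CPM in S273A and at 53.9, 53.2, 55.3 and 58.6 CPM in WT, in the replicate order used above. The S273A libraries tended to the upper side, but replicates 3 and 6 lay inside the WT range. Klf4 had the smallest edgeR p of the 8 factors, with a log2 fold change of 0.085 (SE 0.058, interval -0.044 to 0.21). The exact two-sided permutation p for Klf4 was 0.171, where 4 libraries against 4 can give no less than 0.0286.

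Klf5, which C/EBP-beta and C/EBP-delta induce before Pparg rises, was close to the limit of detection. Its counts were 7, 6, 9 and 3 in S273A and 16, 4, 8 and 4 in WT, or 0.357 ± 0.138 CPM in S273A and 0.490 ± 0.341 CPM in WT (SD, n = 4 each). It did not pass the filter on low counts and was not tested in the same fit. In edgeR without the filter, the log2 fold change of Klf5 was -0.43 (SE 0.51, unadjusted p 0.418). DESeq2 gave -0.44 (SE 0.63, unadjusted p 0.485). With counts this low, both estimates are imprecise.

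The STAT5 proteins carry signals from growth hormone, prolactin and other cytokines to the nucleus and promote fat cell formation. Stat5a and Stat5b are neighbouring copies of an ancestral gene on chromosome 11, 8.6 kb apart and transcribed away from each other (Stat5a 100859351 to 100885169 on the plus strand, Stat5b 100780731 to 100850724 on the minus strand, GENCODE M21 on GRCm38). Their coding sequences are identical at 90.8% of 2291 aligned bases. The longest identical run is 324 bases, starting at base 571 of either coding sequence, and its first 120 bases are shown (GENCODE M21, coding strand, no capitals) because a pair of 36-base reads wholly inside the run carries no sign of which gene it came from.
Stat5a and Stat5b: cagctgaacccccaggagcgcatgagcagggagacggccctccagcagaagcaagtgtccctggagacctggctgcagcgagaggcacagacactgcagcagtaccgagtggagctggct

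Of all 36-base words in their annotated transcripts, 11.2% of those of Stat5a and 14.0% of those of Stat5b also occur in another gene, mostly in the sister gene. How such reads were counted is not given in the sources used here, so the split between the 2 genes is uncertain. These shares are of single words, and a pair of reads is ambiguous only where both reads fall in shared sequence. The end of Stat5a also shares 72 exon bases with Stat3 on the other strand, which these unstranded libraries cannot separate.

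Stat5a was at 62.7, 56.4, 52.8 and 52.5 CPM in S273A and at 53.3, 58.9, 61.5 and 55.1 CPM in WT, so the groups covered nearly the same range. Its log2 fold change was -0.027 (SE 0.073, interval -0.19 to 0.14, edgeR unadjusted p 0.719). Stat5b had the smallest spread of all the factors, with 116, 116, 104 and 111 CPM in S273A and 116, 114, 121 and 112 CPM in WT. Stat5b had a log2 fold change of -0.051 (SE 0.053, interval -0.17 to 0.066, edgeR unadjusted p 0.353). Per kilobase, Stat5a stood at 0.600, 0.540, 0.563 and 0.526 of the Stat5b level in S273A and at 0.508, 0.574, 0.564 and 0.547 of it in WT. The mean log2 ratio was -0.85 ± 0.083 in S273A and -0.87 ± 0.077 in WT (SD, n = 4 each), a difference of 0.023 with an exact two-sided permutation p of 0.686.

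Klf9 encodes a late activator of Pparg that responds to glucocorticoids and follows the clock in many tissues. Its values were 106, 94.2, 110.1 and 86.3 CPM in S273A and 96.3, 81.4, 93.9 and 107 CPM in WT. High and low libraries occurred in both genotypes. The log2 fold change was 0.069 (SE 0.097, interval -0.15 to 0.29, edgeR unadjusted p 0.495).

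Klf15, which promotes Pparg and the insulin-responsive glucose transporter gene Slc2a4 and controls amino acid breakdown, was by far the most variable of the tested factors. It was at 35.5, 17.9, 20.9 and 15.8 CPM in S273A and at 21.7, 12.9, 25.1 and 18.2 CPM in WT. The highest library, S273A replicate 2, had 2.75 times the level of the lowest, WT replicate 2, and the other 3 S273A libraries lay within the WT range. The pooled SD within genotype was 0.46 on the log2 CPM scale, against a median of 0.13 over the 13753 rows whose average log2 CPM reached 1, and between 0.063 and 0.21 for the other 7 tested factors. With counts of 227 to 636 per library, counting error alone would give a coefficient of variation of about 5.30%, while that observed over 8 libraries was 33.0%. For Klf15 the log2 fold change was 0.22 (SE 0.27, interval -0.39 to 0.82, edgeR unadjusted p 0.444). It rested on S273A replicate 2: without that library it was -0.092 (unadjusted p 0.662).

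The 2 factors that hold precursors back had negative estimates. Klf2, a repressor of Pparg in precursors and a flow-induced gene of endothelium, was at 35.5, 39.2, 36.1 and 33.7 CPM in S273A and at 38.9, 39.4, 34.6 and 40.2 CPM in WT. WT replicate 3 fell among the S273A libraries and S273A replicate 3 among the WT libraries. For Klf2 the log2 fold change was -0.084 (SE 0.069, interval -0.24 to 0.070, edgeR unadjusted p 0.252). Gata2, a zinc finger repressor of Pparg in precursors, was at 7.36, 9.84, 11.3 and 9.91 CPM in S273A and at 10.6, 11.4, 8.76 and 10.4 CPM in WT. S273A replicate 2, the library with the highest Klf15, had the lowest Gata2. The log2 fold change of Gata2 was -0.099 (SE 0.14, interval -0.41 to 0.21, edgeR unadjusted p 0.489), and without S273A replicate 2 it was 0.0092.

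Gata2 and Klf15 lie on chromosome 6, as does Pparg, which carries the allele. Gata2 spans 88193891 to 88207032 and Klf15 90462576 to 90475238 (both on the plus strand, GENCODE M21 on GRCm38), at 27.15 and 24.89 Mb from Pparg. No annotated gene overlaps either of them, nor Klf2 (chromosome 8, 72319033 to 72321656), Klf4 (chromosome 4, 55527143 to 55532466) or Klf5 (chromosome 14, 99298691 to 99315036). Klf9 (chromosome 19, 23141226 to 23168134) and Ebf1 (chromosome 11, 44617317 to 45008091) each contain 1 other annotated gene that shares 0 exon bases with them.

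**Figure D3:**
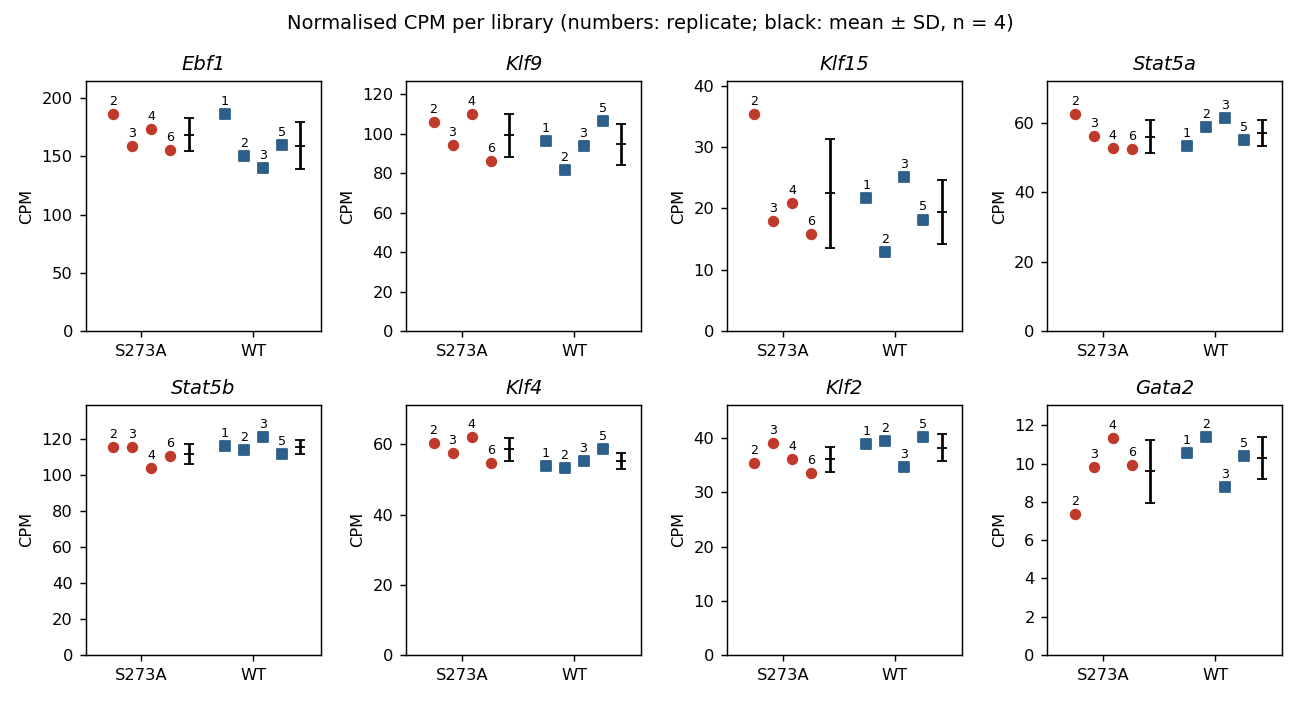
Normalised CPM (vertical axes, from 0) of the 8 tested factors in each library, S273A left of WT, small numbers giving the replicate and black marks the mean ± SD of 4 libraries. Klf15 ranges from 12.9 to 35.5 CPM with S273A replicate 2 at the top, while Stat5b stays between 104 and 121 CPM.

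For every tested factor except Klf4, the genotype estimate was smaller in size than the SD within genotype. For Klf4 the estimate was 0.085 and that SD 0.072 (log2 scale). Some factors varied together over the libraries. Over the 28 pairs of tested factors, 5 had a Pearson r of log2 CPM above 0.5 and 3 had one below -0.5. The highest was that of Klf4 with Klf9 (r = 0.88, Spearman's rho 0.83, n = 8), which was 0.93 after the mean of each genotype was removed and 0.78 without the 2 libraries farthest from the median of Klf4. Klf9 with Klf15 gave r = 0.65, and 0.55 without 2 libraries. For Klf4 with Klf15 r was 0.53, and 0.23 without 2 libraries, and for Ebf1 with Klf9 it was 0.56, and 0.62. Stat5a with Stat5b gave r = 0.66, and 0.47 without 2 libraries. Whether reads shared by the 2 genes raised these values was not tested. Klf15 with Gata2 gave r = -0.81, but -0.27 without the 2 libraries farthest from the median of Klf15. The libraries share depth and cell mixture, so these values are descriptions of 8 points and not tests.

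Each factor was also set beside the scores of 23 gene lists, 184 relations in all, a score being the mean over a list's tested genes of log2 CPM minus the mean over libraries. Of these, 13 had an r of at least 0.8 in size, and all 13 are given here or beside the lists they concern; with this many relations over 8 libraries, high values arise by selection. The highest in size were those of Klf4 and Klf9 with the 7 receptor and kinase genes upstream of STAT5 (r = -0.93 and -0.91, and -0.85 and -0.80 without 2 libraries), a list whose score spans only -0.096 to 0.092. Klf15 followed the score of 14 other promoting factors (r = 0.88, and 0.83 without 2 libraries), and Klf9 that of 10 other KLF genes (r = 0.80, and 0.72).

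Klf15 and Klf9 were high in libraries with high adipocyte markers (r = 0.82 and 0.84, n = 8). Without the 2 libraries farthest from the median adipocyte score these were 0.88 and 0.60. The 12 adipocyte markers, none at 0, summed to 8218 to 10702 CPM in S273A and 6978 to 11078 CPM in WT, and had positive genotype estimates in 10 and negative ones in 2. That split rested on single libraries: it was 5 positive and 7 negative without S273A replicate 2, 6 of each without S273A replicate 4, and 4 positive and 8 negative without WT replicate 2. WT replicate 2 had the lowest adipocyte score (-0.43) together with the lowest Klf15, Klf9 and Klf4. The part of the cell mixture in the values of these 3 genes was not tested.

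Gata2 followed the mast cell list, with r = 0.89 (rho 0.83, n = 8) and 0.73 without the 2 libraries farthest from the median score. All 8 mast cell markers were tested and none was at 0. Their summed level was 138 to 241 CPM in S273A and 166 to 312 CPM in WT. Estimates were positive for 3 and negative for 5 of them, with a median of -0.18 (log2). The median was -0.010 without S273A replicate 2 and 0.020 without WT replicate 2, each with 4 positive and 4 negative estimates. The protease genes Cpa3 (36.6 CPM in S273A and 46.3 in WT) and Cma1 (35.3 and 43.5 CPM, in the same order) had edgeR unadjusted p-values of 0.217 and 0.322. The marker Hdc went the other way, at 7.40 CPM in S273A and 6.08 CPM in WT (edgeR unadjusted p 0.256). S273A replicate 2 had the lowest mast cell score (-0.61) and the lowest Gata2, and WT replicate 2 the highest of both. The part of mast cells in the Gata2 values was not tested.

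Klf2 ran opposite to the blood endothelial list (r = -0.76, rho -0.86, n = 8, and -0.69 without 2 libraries). The 10 endothelial markers, all tested and none at 0, summed to 837 to 1119 CPM in S273A and 717 to 1047 CPM in WT. Their estimates were positive in 10 of 10, with a median of 0.098 (log2), and none was called. Without WT replicate 2 they were 5 positive and 5 negative with a median of 0.0086, and without S273A replicate 6 they were 7 positive and 3 negative with a median of 0.014. The part of endothelium in the Klf2 values was not tested.

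Klf15 also ran opposite to the mast cell list (r = -0.90, and -0.57 without 2 libraries) and to the macrophage list (r = -0.84, and -0.60 without 2 libraries; n = 8). The 10 macrophage markers, none at 0, summed to 2568 to 3020 CPM in S273A and 2822 to 3340 CPM in WT, with positive estimates in 2 and negative ones in 8. Estimates were positive for all 9 mesothelial, all 7 tested B cell and all 5 tested red blood cell markers, and 0 of these were called. Without S273A replicate 3 the B cell estimates were 2 positive and 5 negative, and their median was -0.17 in place of 0.20. The red blood cell median was 0.90, and 0.16 without S273A replicate 6. Mesothelial estimates stayed positive for at least 8 of the 9 markers without any 1 library. The summed levels were 209.6 to 288 CPM in S273A and 147 to 243 CPM in WT for mesothelium, and 206 to 400.5 CPM in S273A and 189 to 284 CPM in WT for red blood cells. Their part in the factors' values was not tested.

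**Figure D4:**
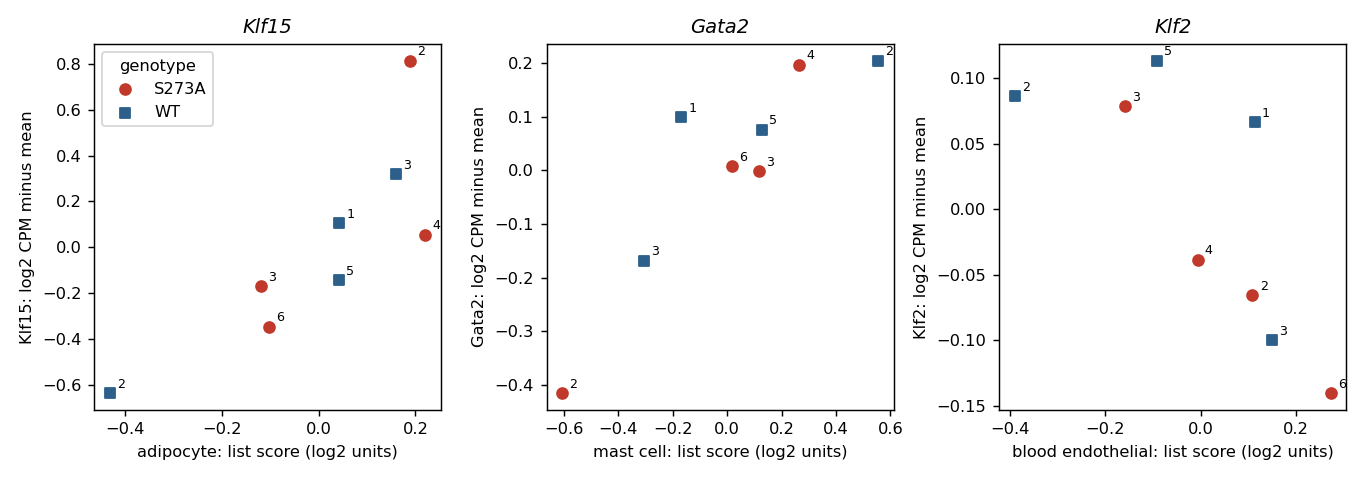
Log2 CPM of Klf15, Gata2 and Klf2 minus its mean over 8 libraries (vertical axes) against the score of the adipocyte, mast cell and blood endothelial list (horizontal axes, log2 units). S273A libraries are circles and WT libraries squares, numbered by replicate. Klf15 and Gata2 rise with their lists (r = 0.82 and 0.89), Klf2 falls (r = -0.76), and both genotypes lie along the same spread.

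Clock and glucocorticoid-induced genes were read beside Klf9, Klf15 and Klf4. With the score of 17 tested clock genes, r was 0.88 for Klf15, 0.74 for Klf4 and 0.69 for Klf9 (n = 8). Without the 2 libraries farthest from the median score these were 0.57, 0.55 and 0.43. The clock list holds activators and repressors taken with the same sign, so its score does not measure clock phase. With 9 glucocorticoid-induced genes, such as the FK506-binding protein gene Fkbp5, r was 0.81 for Klf9, 0.69 for Klf15 and 0.67 for Klf4. Without 2 libraries these were 0.87, 0.42 and 0.98. Per1 is on both lists. Of the clock genes, 15 had positive and 2 negative estimates, with a median of 0.075 (log2) and 0 called. Without S273A replicate 2 the split was 10 and 7 with a median of 0.020. Without WT replicate 2 it was 11 and 6, with a higher median of 0.12. Nr1d2, a clock repressor, was at 86.2 CPM in S273A and 76.0 CPM in WT (edgeR unadjusted p 0.0366, adjusted p 1.00). Of the glucocorticoid-induced genes, 6 had positive and 3 negative estimates, with a median of 0.057 and 0 called. They were 4 positive and 5 negative without S273A replicate 2 and also without WT replicate 2.

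**Figure D5:**
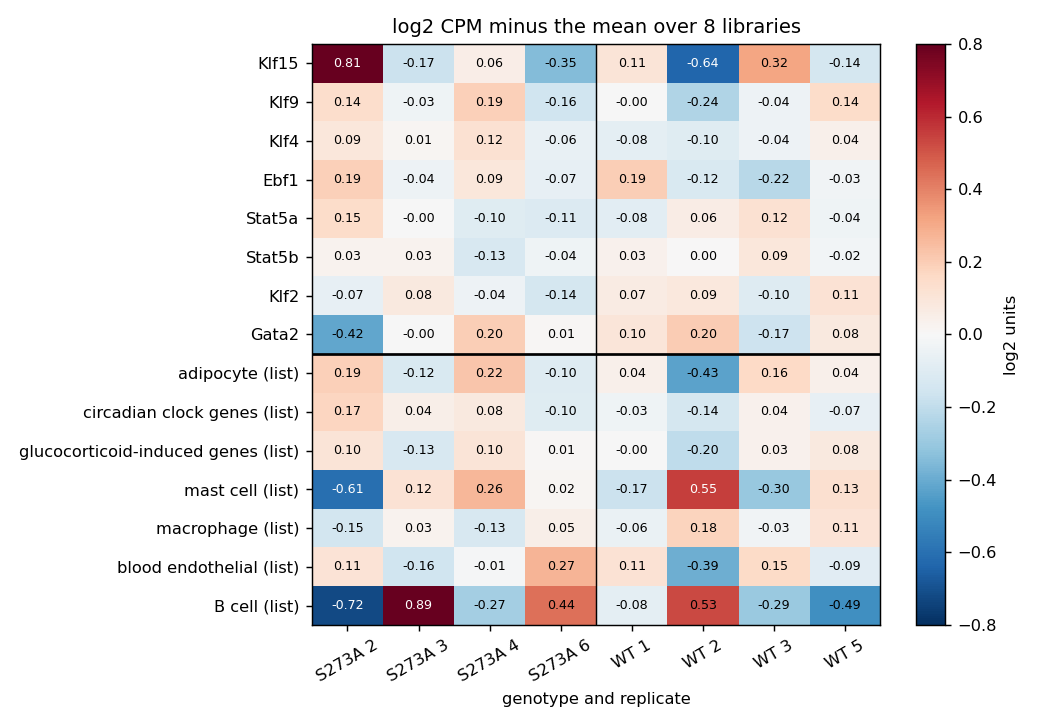
Log2 CPM minus the mean over 8 libraries for the 8 tested factors (above the line) and the scores of 7 gene lists (below it), 1 column per library, S273A left of WT, red for high and blue for low. Klf15 is highest in S273A replicate 2 (0.81) and lowest in WT replicate 2 (-0.64), the libraries with the lowest (-0.61) and highest (0.55) mast cell scores.

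Genes that act downstream were examined for the factors whose targets are known. Of the 8 STAT5 target genes, 6 had positive and 2 negative estimates, with a median of 0.050 (log2) and 0 called, and the median was 0.0066 without S273A replicate 4. The score of these targets did not follow either STAT5 mRNA, with r = -0.14 for Stat5a and -0.39 for Stat5b (n = 8). The score and the median take all 8 genes with the same sign, including Bcl6, which STAT5 represses, so opposite responses could cancel. Cish, the feedback inhibitor that STAT5 induces most directly, was at 40.1, 24.0, 24.3 and 19.6 CPM in S273A and at 19.9, 24.3, 10.9 and 15.3 CPM in WT. S273A replicate 2 stood clear of every WT library, and WT replicate 2 lay among the other S273A libraries. The Cish log2 fold change was 0.61 (SE 0.27, edgeR unadjusted p 0.0460, adjusted p 1.00), and 0.36 without S273A replicate 2 (unadjusted p 0.151). Bcl6, which STAT5 represses, had a log2 fold change of -0.28 (SE 0.15, unadjusted p 0.0951), and -0.12 without WT replicate 5. Upstream, the growth hormone receptor gene Ghr was at 681 ± 86.9 CPM in S273A and 675 ± 93.5 CPM in WT, and the kinase gene Jak2 at 109 ± 6.19 and 109 ± 8.45 CPM in the same order. Of the 7 receptor and kinase genes, 4 had positive and 3 negative estimates and none was called. Their median was 0.0026 (log2) and turned negative in 7 of the 8 fits that leave out a library.

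Slc2a4, a KLF15 target, was at 72.0 CPM in S273A and 62.1 CPM in WT (log2 fold change 0.22, SE 0.18, edgeR unadjusted p 0.268). S273A replicate 2 was at 101 CPM, and without it the log2 fold change of Slc2a4 was 0.0050. Bcat2, which starts the breakdown of branched-chain amino acids, was at 78.3 CPM in S273A and 73.6 CPM in WT on the more abundant of its 2 rows (0.091, SE 0.072, unadjusted p 0.234), and its log2 fold change was 0.026 without the same library. The score of the 5 KLF15 targets varied with Klf15 (r = 0.82, n = 8, and 0.74 without 2 libraries), as much with Klf9 (r = 0.82, and 0.73), and with Klf4 (r = 0.69, and 0.77). Slc2a4 is on both this list and the adipocyte list. Of the 6 targets of KLF2 and KLF4, 5 had positive estimates, and 3 did without WT replicate 2. Their score had r = -0.67 with Klf2 and 0.045 with Klf4 (n = 8), and -0.32 and -0.41 without 2 libraries. Tie1 is on both this list and the blood endothelial list. The anticoagulant receptor gene Thbd was at 154, 150.1, 171 and 129.6 CPM in S273A and at 126, 138, 129.5 and 139 CPM in WT, with 3 S273A libraries above every WT library. The log2 fold change of Thbd was 0.18 (SE 0.080, edgeR unadjusted p 0.0459, adjusted p 1.00), and 0.12 without S273A replicate 4 (unadjusted p 0.141).

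No other regulator of fat cell formation on the 2 lists was called. Of 14 other promoting factors, 8 had positive and 6 negative estimates, with a median of 0.0064 (log2) and 0 called, and 4 positive and 10 negative without WT replicate 2. Pparg itself was at 165, 125, 141 and 129 CPM in S273A and at 134, 106, 138 and 137 CPM in WT (log2 fold change 0.12, SE 0.11, edgeR unadjusted p 0.299). Without S273A replicate 2 the log2 fold change of Pparg was 0.028, and without WT replicate 2 it was 0.037. Cebpa, the factor that maintains Pparg in mature fat cells, was at 351 CPM in S273A and 347 CPM in WT (log2 fold change 0.019, SE 0.12). The brown fat regulator Ebf2, a relative of Ebf1, was at 38.5 CPM in S273A and 41.9 CPM in WT (log2 fold change -0.12, SE 0.093). The log2 fold change of Ebf2 was -0.067 without S273A replicate 3, -0.075 without S273A replicate 6 and -0.058 without WT replicate 5. Of 9 other inhibiting factors, 5 had positive and 4 negative estimates, with a median of 0.040 and 0 called, and the median was -0.011 without WT replicate 3. Klf3, a corepressor-binding relative that restrains Cebpa, was at 76.9 ± 1.49 CPM in S273A and 73.6 ± 1.11 CPM in WT (log2 fold change 0.064, SE 0.043, edgeR unadjusted p 0.164). Among 10 other KLF genes that were tested, 5 estimates were positive and 5 negative.

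Genes whose library pattern was most like each factor were chosen as the 3 highest Pearson r among 12410 named rows, 24 in all. With so many rows and 8 libraries, high values arise from the choice itself. Those at the top were Sema5a for Klf9 (r = 0.99), Gstm2 for Klf15 (0.99), Neo1 for Klf4 (0.99), Hsd11b1 for Ebf1 (0.98), Wnk1 for Klf2 (0.97), Stap1 for Gata2 (0.96), Ss18l1 for Stat5a (0.94) and Ahrr for Stat5b (0.94). Hsd11b1 encodes the enzyme that regenerates active glucocorticoid. When the mean of each genotype was removed first, 8 of the 24 were chosen again, among them Sema5a, Neo1 and Wnk1.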

How the data were processed

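The authors deposited 1 table of raw read counts per gene, 8 library columns and 1 column of another quantity, feature length in bases, per the file headers. Libraries started, per the labels' protocols, from 400 ng of RNA; ribosomal RNA was removed and the rest made into unstranded cDNA, then amplified for 12 cycles and read as pairs of 36 bases. Per the submitters' processing notes, build mm10, featureCounts 1.5.2, HISAT2 2.0.5, edgeR 3.3.0, bcl2fastq 2.20.0 and Picard 2.9.2 were used, without stated roles; the handling of duplicates and of reads at several places is not given in the sources used here.

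Groups came from the genotype label. Counts were fitted with edgeR 4.0.16 in R 4.3.3 (filterByExpr defaults, TMM, robust glmQLFit, glmQLFTest, no covariate), with Benjamini-Hochberg adjustment over all 15667 rows kept and a threshold of 0.05. The fit was tested on simulated data. Standard errors and 95% intervals came from the F statistic. Log2 CPM used a prior count of 2. Alternatives were DESeq2 1.42.0, limma-voom (limma 3.58.1), RLE scaling, no filter, a replicate block and leaving out each library. For each gene list described, the text names members from the 4 with the smallest p, plus Adipoq, Cebpa, Ghr and Jak2, chosen for their roles after values were seen. Rows most like a factor had an average log2 CPM of 1 or more and a gene symbol that is not a clone, accession or predicted-gene name. The factors and lists were chosen with earlier results of these data known.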

Additional observations from a re-analysis of the deposited data

How the results depend on the processing

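No alternative called any of the 8 tested factors, and their smallest unadjusted p over the alternatives was 0.0652 (Ebf1, without WT replicate 1). Without 1 library, log2 fold changes ran from 0.031 to 0.17 for Ebf1, 0.058 to 0.12 for Klf4, 0.0033 to 0.13 for Klf9, -0.092 to 0.36 for Klf15, -0.19 to 0.0092 for Gata2, -0.13 to -0.052 for Klf2, -0.086 to 0.013 for Stat5a and -0.071 to -0.019 for Stat5b. Klf15 and Gata2 changed sign without S273A replicate 2, and Stat5a without S273A replicate 4 (0.0017), S273A replicate 6 (0.0035) or WT replicate 3 (0.013). The difference in log2 ratio of Stat5a to Stat5b ran from -0.013 to 0.050, negative without S273A replicate 2 or WT replicate 1. Numbers 2 and 3 occur in both genotypes, and their libraries did not deviate together (r = -0.10 and -0.28), so they were not treated as pairs. The other numbers each occur in 1 library, so estimates under a replicate block rest on replicates 2 and 3 alone. The replicate block gave 0 called rows and turned Klf2 to 0.012. The other 7 factors kept their sign, but Ebf1 went to 0.25, Klf9 to 0.19, Klf15 to 0.48, Gata2 to -0.23, and Stat5a and Stat5b to -0.016 and -0.018, each over 1.5 times from the estimate without it. DESeq2 called 1 row, Gdf3, as did edgeR without S273A replicate 4 (0 to 1 over the 8 fits without a library). Of the genes most like each factor, 8 of 24 were chosen again with genotype means removed. Levels moved by less than 1 SD. List medians, refitted as alternatives added after the data were seen, were not stable: 15 of 23 changed sign without at least 1 library, among them the adipocyte, mast cell, B cell and lymphatic endothelial lists (-0.29, and 0.12 without WT replicate 1). The 8 that kept their sign were the STAT5 target, KLF2 and KLF4 target, clock, blood endothelial, macrophage, T and NK cell, mesothelial and red blood cell lists. Under the block, which rests on replicates 2 and 3, 5 of 23 changed sign, including B cell (-0.11) and red blood cell (-0.22). Causes were not tested. Klf5 had only 3 to 16 counts per library, so its estimates are imprecise.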
